A study of Canis lupus familiaris with 36 samples.

Results

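The 7 mature miRNAs described here, cfa-miR-122, cfa-miR-192, cfa-miR-194, cfa-miR-215, cfa-miR-885, cfa-miR-802 and cfa-miR-483 (cfa for the dog, Canis familiaris, left out from here on), are best known from the liver and the gut epithelium, and they were followed across cardiac tissue of dogs with and without hemangiosarcoma (HSA), a malignant tumor of endothelial cells. They were taken by name from a table that lists 453 mature miRNAs, and all 7 were found, each with 1 precursor. The list was chosen by name with cardiac levels of these libraries known, above all that of miR-122 in a single tumor library, HSA replicate 3. Their levels and differences between the groups are therefore given as a description, with standard errors and without p-values.

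Small RNA was sequenced from formalin-fixed, paraffin-embedded tissue of 6 dogs with cardiac HSA and of 6 control dogs that died of non-neoplastic causes, 1 library per dog. The 24 splenic libraries of the series were not analysed here. All tissue came from the archive of a single diagnostic laboratory. Library names are formed differently in the 2 conditions and no batch is given, so a batch of tissue or sequencing cannot be told apart from the condition. According to the paper, the HSA dogs were significantly older than the control dogs, and earlier chemotherapy was neither excluded nor stratified. Age and chemotherapy therefore cannot be told apart from the condition either. The groups follow the sample titles, because the treatment field of the labels names the opposite condition for all 12 cardiac libraries. The tissue was extracted whole, so a library may hold tumor, heart muscle, blood and other tissue in any proportion, and in such bulk samples fewer cells of a type cannot be told apart from less RNA per cell. After merging of duplicate entries, a control library held at least 6999830 and at most 11668822 counts, with a median of 9049880.5. For HSA the smallest library had 2018959 counts, the median was 4233661 and the largest had 8999025. Levels are given as CPM, the count of a miRNA scaled to a common library total, after TMM normalization, a scaling by which most miRNAs keep their level between libraries.

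MiR-122 is produced almost exclusively by hepatocytes, where it is the most abundant miRNA and takes part in the control of cholesterol and fatty acid metabolism. MiR-192, miR-194 and miR-215 are typical of liver, intestinal epithelium and kidney, are driven by hepatocyte nuclear factors, and can be induced by p53. MiR-192 and miR-215 share a seed, the stretch that selects target mRNAs. MiR-885 and miR-802 are enriched in liver, miR-802 also in pancreas, and miR-483 is processed from the gene of insulin-like growth factor 2, which is active in fetal liver. In the RefSeq gene table of the dog assembly UU_Cfam_GSD_1.0, another build than the CanFam3.1 of the authors, the MIR215 and MIR194 genes lie next to each other within IARS2, MIR192 lies within a non-coding RNA gene, MIR885 within ATP2B2, MIR483 within IGF2, and MIR122 and MIR802 lie within no listed gene. In other mammals a further copy of miR-194 lies beside miR-192, and with 1 entry for miR-194 the products of several copies could not be told apart here.

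The 12 libraries did not share a single pattern of these miRNAs. In control tissue, they were minor species in which miR-192 led. In HSA replicate 3, miR-122 was the most abundant miRNA of the whole library, and miR-192, miR-194, miR-885, miR-802 and miR-483 were all at their highest level of the 12 libraries. In HSA replicate 5, miR-192, miR-194 and miR-215 were high while miR-122 was lower than in any other HSA library. HSA replicate 4 had the third highest miR-192 and miR-194 without high miR-122, and replicates 1, 2 and 6 lay closer to control for most of the list. MiR-122 was above every control value in all 6 HSA libraries.

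**Figure D1:**
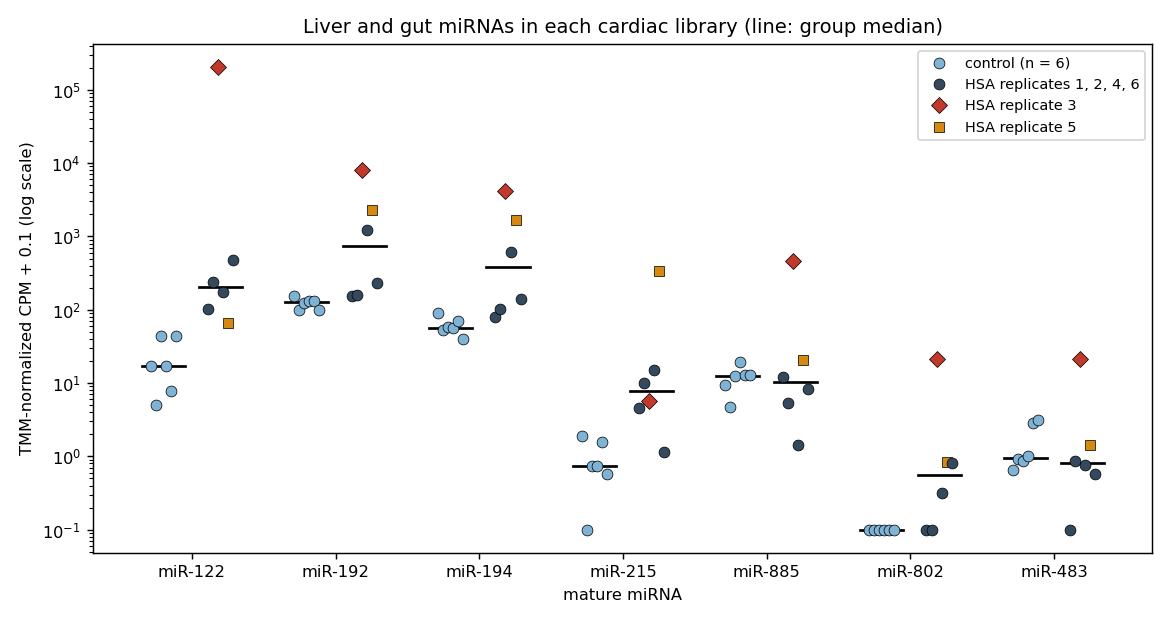
TMM-normalized CPM plus 0.1 on a log scale for each of the 7 miRNAs in the 6 control and 6 HSA libraries, with a line at the group median and HSA replicates 3 and 5 marked. Replicate 3 stands at 204213 CPM for miR-122 and replicate 5 at 343 CPM for miR-215, while points at the bottom of the axis are libraries without a read.

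Together the 7 miRNAs made up between 0.0175% and 0.0280% of the counts in the 6 control libraries, counting each mature miRNA once. In HSA the share was 0.0479% in replicate 1, 0.128% in replicate 2, 28.2% in replicate 3, 0.294% in replicate 4, 0.647% in replicate 5 and 0.101% in replicate 6. Every HSA library was above every control library, and replicate 3 was far above the other 5. The Wilson 95% interval of its share ran from 28.1% to 28.2%, and such an interval reflects the error of counting alone, because PCR copies of a molecule are read more than once. The leading member also changed. MiR-192 held from 49.6% to 60.9% of the members' counts in control, and it also led in HSA replicates 1, 4 and 5, with 43.6%, 60.3% and 51.8%. MiR-122 led in HSA replicates 2, 3 and 6, with 46.7%, 94.1% and 55.4%.

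**Figure D2:**
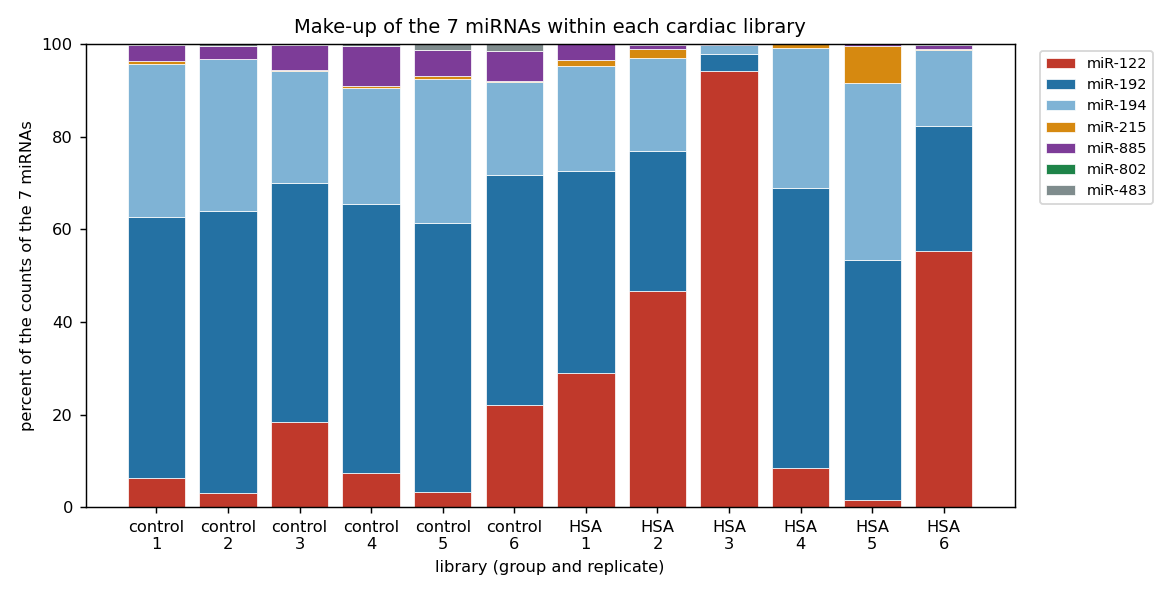
Percent of the counts of the 7 miRNAs that each of them held in each control and HSA library, as stacked bars. MiR-192 leads in all 6 control libraries, miR-122 fills 94.1% of the bar of HSA replicate 3, and the band of miR-215 is widest in HSA replicate 5.

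MiR-122 had 4.99 CPM in the lowest, 17.0 in the median and 43.9 in the highest control library. In HSA, replicates 1 to 6 had 103, 241, 204213, 173, 66.7 and 477 CPM. The groups did not overlap, and even the lowest HSA value was above the highest control value. In HSA replicate 3 this was 656788 counts, 26.5% of the library (Wilson 95% interval 26.5% to 26.6%), and the first rank among all mature miRNAs. In the other HSA libraries miR-122 ranked between 66 and 143, and in the control libraries between 127 and 186. The level in replicate 3 was 428 times that of the next HSA library. HSA had a mean of 34212 ± 83283 CPM (SD, n = 6), and the control mean was 22.4 ± 17.3 CPM (SD, n = 6), so the spread between HSA libraries was larger than their mean. Without replicate 3 the HSA mean was 212 ± 163 CPM (SD, n = 5), still above the control mean.

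MiR-192 had 98.3 CPM in the lowest, 127 in the median and 153 in the highest control library, an even level across the controls. HSA replicates 1 to 6 had 155, 156, 8075, 1231, 2269 and 233 CPM. No HSA library fell below the controls, but replicates 1 and 2 were barely above the highest of them. The high values were in replicates 3, 5 and 4, in this order. The mean was 2020 ± 3082 CPM (SD, n = 6) in HSA against 122 ± 21.1 CPM (SD, n = 6) in control, and 809 ± 935 CPM (SD, n = 5) in HSA without replicate 3.

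MiR-194 followed miR-192 closely. It had 39.8, 57.0 and 89.9 CPM in the lowest, median and highest control library, and 80.7, 103, 4164, 619, 1678 and 141 CPM in HSA replicates 1 to 6. Replicate 1 lay within the control range and the other 5 HSA libraries above it. The HSA mean was 1131 ± 1606 CPM (SD, n = 6), that of the controls was 61.2 ± 17.1 CPM (SD, n = 6), and it was 524 ± 682 CPM (SD, n = 5) in HSA without replicate 3.

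The ratio of the counts of miR-192 to those of miR-194, which needs no normalization between libraries, lay between 1.71 and 2.47 for the control libraries and between 1.35 and 1.99 for the HSA libraries. It was 1.94 in replicate 3 and 1.35 in replicate 5. Over the same libraries the level of miR-192 itself ranged from 98.3 to 8075 CPM. The control and HSA ratios overlapped, and their medians were 2.00 and 1.79.

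MiR-215 was near the limit of detection in control, with 13, 0, 6, 5, 10 and 3 counts in replicates 1 to 6, or at most 1.79 CPM. HSA replicates 1 to 6 had 10, 89, 18, 68, 1829 and 9 counts, that is 4.48, 9.85, 5.60, 15.0, 343 and 1.05 CPM. Replicate 5 stood apart from the rest, replicates 1 to 4 were above every control at low counts, and replicate 6 was within the control range. HSA replicate 3, the highest library for miR-192, had only 18 counts of miR-215 beside 25972 of miR-192. Because these 2 miRNAs are near-identical copies, reads could have been assigned to the wrong one, but in that library at most 18 counts of miR-215 could have come from miR-192. The ratio of miR-215 to miR-192 was 0.000693 in HSA replicate 3, 0.151 in HSA replicate 5 and at most 0.0117 in control.

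MiR-885 had 4.58, 12.5 and 19.5 CPM in the lowest, median and highest control library. HSA replicates 1 to 6 had 12.1, 5.31, 461, 1.33, 20.4 and 8.32 CPM. Replicate 3 was 22.6 times above the next HSA library, replicate 5 was just above the highest control, and replicate 4, with 6 counts, was below every control. The remaining 3 HSA libraries lay within the control range. The median of the HSA libraries, 10.2 CPM, was under that of the controls, whereas the HSA mean of 84.8 ± 185 CPM (SD, n = 6) was above the control mean of 11.9 ± 4.91 CPM (SD, n = 6) through replicate 3. The HSA mean without that library was 9.49 ± 7.27 CPM (SD, n = 5).

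MiR-802 had no read in any of the 6 control libraries. A count of 0 still allows up to 3 counts, or 0.257 to 0.429 CPM of the unscaled total in these libraries. HSA replicates 1 to 6 had 0, 0, 69, 1, 4 and 6 counts. Replicate 3 held most of these reads. With each control library set to 3 counts, miR-802 was at least 9.85-fold higher in HSA over all 6 libraries. Without replicate 3 the HSA mean of 0.335 CPM was itself under the level of 3 counts in those libraries, 0.650 CPM, and a difference was not detectable at this depth.

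MiR-483 had from 4 to 19 counts in control, or 0.552, 0.860 and 3.05 CPM in the lowest, median and highest library. HSA replicates 1 to 6 had 0, 7, 68, 3, 7 and 4 counts, which in replicate 3 was 21.1 CPM. That library alone was clearly above the controls. Replicate 1, without a read in a library where 3 counts are 1.49 CPM, cannot be placed against them, and replicate 6, with 0.469 CPM from 4 counts, was not distinguishable from the lowest control at this depth. Without replicate 3 the HSA mean was 0.643 ± 0.476 CPM (SD, n = 5), against 1.47 ± 1.12 CPM (SD, n = 6) in control.

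In the fit over the whole table, edgeR's filter on low counts kept 225 of the mature miRNAs. Of the 7 members, 5 passed it. MiR-802 and miR-483 did not. Calls were made with edgeR's quasi-likelihood test where the p after Benjamini-Hochberg adjustment was below 0.01 and the level differed by 1 or more on the log2 scale. Of the 5 tested, 4 were called higher in HSA and 0 lower, the remaining one being miR-885, which was not called. At an unadjusted p under 0.05, 5 were higher and 0 lower, and without HSA replicate 3 it was 4 and 0. The share of all miRNAs at this looser threshold was not counted, so these counts cannot be weighed. Over all 225 miRNAs, 18.7% were called higher, 7.11% lower and 25.8% in either direction, and nothing is read from the members' count because they were chosen with this contrast known. Of the 5, 2 had all HSA libraries above all control libraries, miR-122 and miR-192, beside 15.1% of all miRNAs tested. In a fit without a filter on low counts the log2 fold change of miR-483 was 1.43 (standard error 1.13). Neither miR-483 nor miR-802, which had no read in control, was called there. In that fit 13.1% of 320 miRNAs were called higher, 4.38% lower and 17.5% in either direction.

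The log2 fold changes of HSA over control, in the fit of all 12 libraries, were 10.58 (standard error 2.60) for miR-122, 4.04 (standard error 0.96) for miR-192, 4.21 (standard error 0.96) for miR-194, 6.22 (standard error 1.55) for miR-215 and 2.83 (standard error 1.22) for miR-885. The median over all tested miRNAs was 0.34. Without HSA replicate 3 they were 3.24 (standard error 0.68), 2.72 (standard error 0.69), 3.097 (standard error 0.75), 6.47 (standard error 1.54) and -0.33 (standard error 0.57) in the same order. MiR-122, miR-192, miR-194 and miR-215 were called in this fit as well, where 13.1% of 229 miRNAs were called higher, 5.68% lower and 18.8% in either direction, and the value of miR-885 turned from positive to negative. That of miR-215 depended on replicate 5, without which it was 3.09 and not called. Without any 1 of the 6 control libraries, 0 of the members were called. Over all miRNAs, 19 to 30 were called higher in these fits, against 42 in the fit of all 12 libraries. At an adjusted p under 0.05, a threshold added after seeing the data, 4 members were called in each of these 6 fits.

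**Figure D3:**
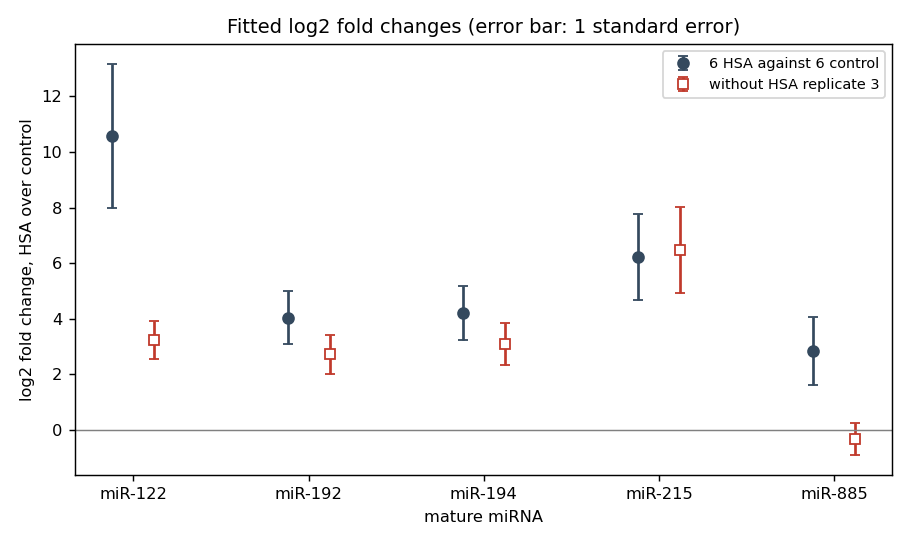
Log2 fold change of HSA over control with 1 standard error for the 5 members that passed the count filter, in the fit of all 12 libraries (filled circles) and without HSA replicate 3 (open squares). MiR-122 drops from 10.58 to 3.24 and miR-885 from 2.83 to -0.33, while miR-215 is at 6.22 and 6.47.

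Ratios between members within a library separated the HSA libraries further. The ratio of miR-122 to miR-192 ran from 0.0505 to 0.446 in control, with a median of 0.121. In HSA replicates 1 to 6 it was 0.665, 1.54, 25.3, 0.141, 0.0294 and 2.05. Replicates 1, 2, 3 and 6 were above the control range, replicate 4 was within it, and replicate 5 was below it. The ratio of miR-122 to miR-885 lay between 0.602 and 3.54 for the controls and between 3.27 and 443 for HSA, with replicate 5 lowest and replicate 3 highest among the HSA libraries. HSA replicates 4 and 5, the libraries after replicate 3 in miR-192 and miR-194, had the lowest ratios of miR-122 to miR-192 in HSA. High miR-192 lowers this ratio by itself, as it is the divisor. MiR-122 alone was lowest in replicate 5 (66.7 CPM), whereas replicate 4 (173 CPM) was above replicate 1 (103 CPM).

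**Figure D4:**
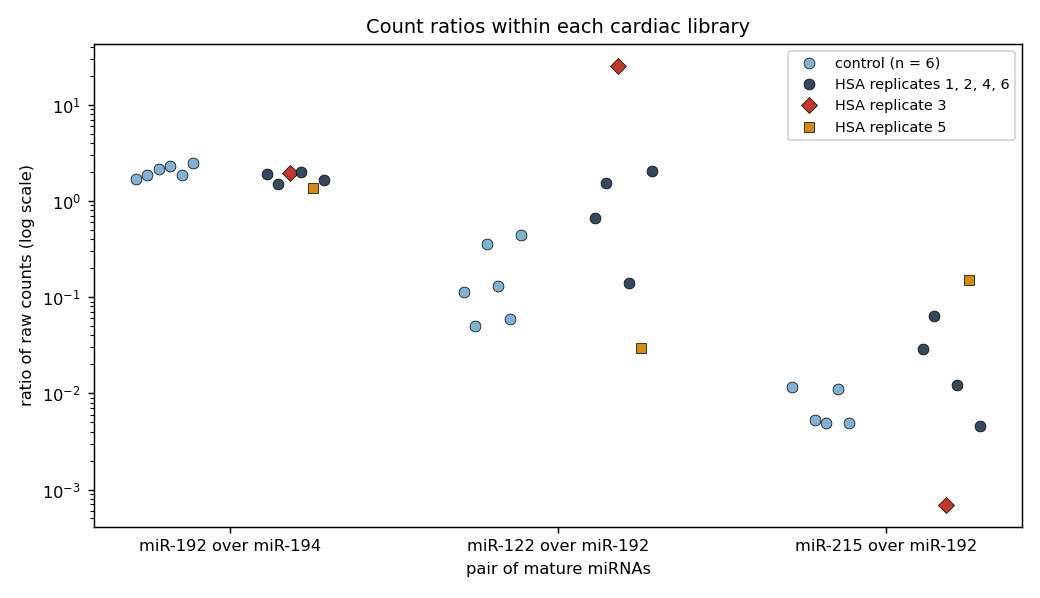
Ratios of raw counts within each library on a log scale, for miR-192 over miR-194, miR-122 over miR-192 and miR-215 over miR-192 (1 control library without a read of miR-215 is not drawn). The first ratio stays between 1.35 and 2.47 in all 12 libraries, while HSA replicates 3 and 5 lie at opposite ends of the other 2.

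The likeness of expression profiles was measured as the root mean square difference of log2 CPM after each profile was centred on its own mean, over the 12 libraries and the 225 tested miRNAs. The miRNA nearest to miR-192 was miR-194, at 0.23, and the nearest miRNAs outside the list were miR-450b at 1.21, miR-10a at 1.26, miR-204 at 1.305, miR-148a at 1.36 and miR-146a at 1.39. Without HSA replicate 3 miR-194 was again the nearest, at 0.24, followed by miR-450b at 0.61 and miR-204 at 0.62. For miR-122, no profile was near over 12 libraries. MiR-192 came first at 2.62, then miR-223 at 2.63, miR-194 at 2.65, miR-21 at 2.72 and miR-8865 at 2.87, ahead of miR-885 at 2.90, miR-146a at 3.02 and miR-142 at 3.09. Without replicate 3, the nearest to miR-122 were miR-223, a miRNA of myeloid cells, at 0.73, then miR-92b, miR-21 at 1.12, miR-144 at 1.17 and miR-371 at 1.20. In those 11 libraries miR-192 and miR-194 were at 1.90 and 1.94 from miR-122 and ranked 80 and 87 in nearness to it. These distances describe the 12 libraries, which share their scaling. They span both groups, so miRNAs with a like difference between HSA and control come out near each other. Without replicate 3 the log2 fold change of HSA over control was 3.24 for miR-122 and 3.40 for miR-223.

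Among all 225 tested miRNAs, the excess of HSA replicate 3 over the median of the other 5 HSA libraries was largest for miR-122, with a log2 difference of 10.20. MiR-375, a miRNA of endocrine and mucosal epithelial cells, followed with 6.51, and then miR-885 with 5.71, miR-192 with 5.11 and miR-194 with 4.88. The list went on with miR-148a at 2.07, miR-455 at 1.49, miR-130b at 1.45, miR-21 at 1.43 and miR-146a at 1.37. Of the first 5 miRNAs 4 were members, where 5 of the 225 tested are members, and there was a wide step down to the sixth. The members were chosen with the levels in this library known, so nothing is read from this count. The excess of miR-215 in this library was -0.76. In HSA replicate 5, miR-215 had the fourth largest excess, 5.81, behind miR-375 with 7.50, miR-200c with 6.56 and miR-429 with 5.99, and that of miR-122 was -1.85. MiR-375 had 5288 CPM in replicate 3, 10479 in replicate 5 and 4482 in replicate 2, against 3.73 ± 2.44 CPM (SD, n = 6) in control, so it was high in a library without high miR-192 as well.

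**Figure D5:**
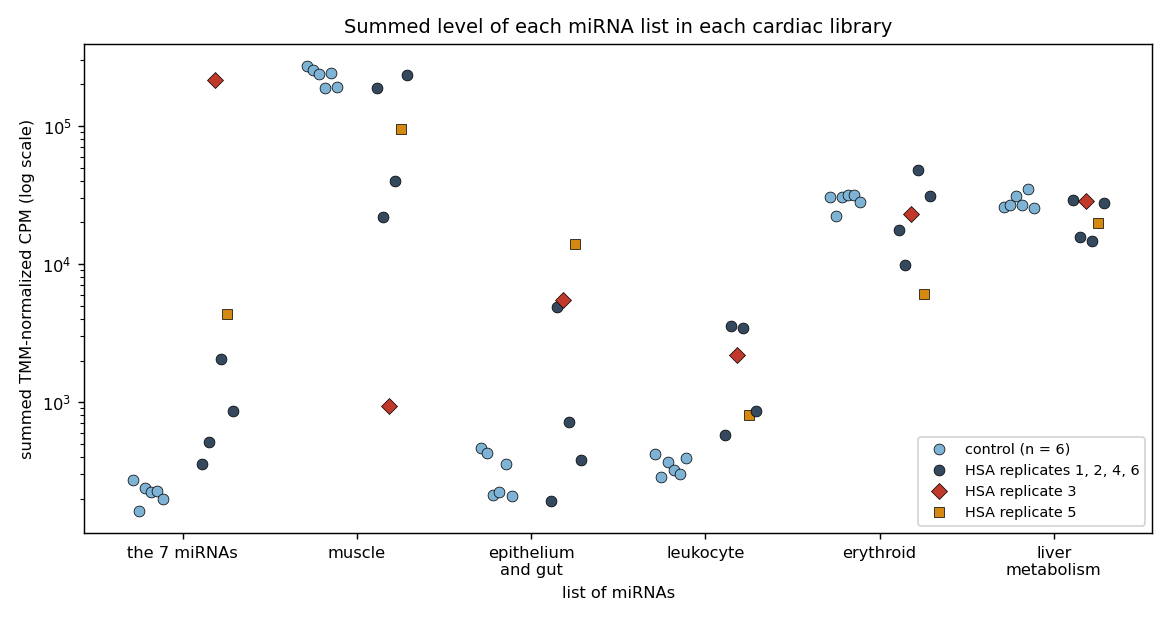
Summed TMM-normalized CPM, on a log scale, of the 7 miRNAs and of 5 lists typical of other cells in each control and HSA library. HSA replicate 3 has the highest sum of the 7 miRNAs, 216962 CPM, and the lowest sum of the muscle list, 941 CPM, and HSA replicate 5 has the highest sum of the epithelium and gut list, 13924 CPM.

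MiRNAs typical of other cells differed between the same libraries. The 8 muscle miRNAs, among them miR-1, miR-133a and miR-499, which are abundant in heart muscle, summed to between 189757 and 271128 CPM in control. Their sums were 190091, 21802, 941, 40056, 94642 and 232807 CPM in HSA replicates 1 to 6. MiR-133a and miR-133c had nearly equal counts and both enter this sum. HSA replicate 3 was thus the lowest of all libraries in muscle miRNAs, and miR-208b, which is encoded in a cardiac myosin gene, had no read in it, while the other HSA libraries had 6.63 to 68.2 CPM. MiR-208a, from the other cardiac myosin gene, had no read in replicates 3, 4, 5 and 6, whatever their muscle sum. It had 25.1 CPM in replicate 1 and 2.99 CPM in replicate 2, and at most 8.61 CPM in control. Of the 8, 0 were called in either direction by edgeR, DESeq2 or limma, where edgeR called 25.8% of all miRNAs tested. At an unadjusted p under 0.05 each of the 3 tools had 1 lower and 0 higher. Their median log2 fold change in edgeR was -1.24. MiR-126, the endothelial miRNA, had 1195 CPM in replicate 3 and 943 to 4291 CPM over the HSA libraries, against 2369 to 4209 CPM in control, and was not called. The part of these differences in tissue make-up in the levels of the 7 miRNAs was not tested.

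The epithelium and gut list held 9 miRNAs, of which 5 passed the filter. Of these, 3 were called higher, miR-200c, miR-203 and miR-375, and 0 lower, beside 18.7% and 7.11% of all miRNAs tested. For miR-31 the HSA mean was 134 ± 87.3 CPM (SD, n = 6), under the control mean of 300 ± 117 CPM (SD, n = 6), and 5 of 6 HSA libraries were below all controls. It was not called, at -1.16 (standard error 0.45) on the log2 scale. It gave most of the sum in every control library (188 to 444 CPM), so that the sums of the groups rest on different miRNAs. The sum was 210 to 468 CPM in control and 194, 4889, 5511, 722, 13924 and 384 CPM in HSA replicates 1 to 6. In replicate 3, 96.0% of the sum was miR-375, while miR-200c, which marks epithelial cells in general, had 10.9 CPM and miR-200b had no read. In replicate 5, miR-200c had 1567 CPM, miR-203 had 1309 and miR-429 had 202. Replicate 4 came next for miR-200c, with 213 CPM, and for miR-429, with 108 CPM. The libraries with high miR-192 and miR-194 thus differed in this list, with the miR-200 family high in replicates 4 and 5 and low in replicate 3. No part of these miRNAs in the levels of the members was tested.

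The list of other miRNAs linked to liver metabolism held 10 names, and 9 passed the filter. Of these, 1 was called higher, miR-148a, and 0 lower, beside 18.7% and 7.11% of all miRNAs tested. Their median log2 fold change was 0.17, against 0.34 over all miRNAs. MiR-148a, which is abundant in liver and acts on lipoprotein metabolism, had 926 ± 185 CPM (SD, n = 6) in control and 1271, 2718, 5965, 1417, 3041 and 1197 CPM in HSA replicates 1 to 6, all above the highest control, with replicate 3 highest. Its log2 fold change was 1.49 (standard error 0.38), and it was 1.06 without replicate 3, where edgeR called 0 of the 9, with 2 higher and 2 lower at an unadjusted p under 0.05. MiR-365 had 891 CPM in replicate 3, above the 174 to 486 CPM of the other HSA libraries. MiR-101 had 3323 CPM there, and 1080 to 2236 CPM in the other HSA libraries. MiR-103 and miR-107, which had equal counts in every HSA library and differ little in sequence, had 5157 CPM in replicate 3 and from 2541 to 2944 CPM in the others. MiR-22 and miR-378 were not at their highest there, with 4745 and 3051 CPM. The list is thus mixed in replicate 3, and its sum of 28734 CPM was within the 25681 to 35095 CPM of the control libraries.

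Leukocyte and erythroid miRNAs did not single out HSA replicate 3. The 4 leukocyte miRNAs were all called higher in HSA, and 2 of them without replicate 3. Over all miRNAs 18.7% were called higher and 7.11% lower, and without replicate 3 13.1% and 5.68%. The leukocyte count was 4 in DESeq2, 2 in limma, 2 without any 1 control library and 1 with the replicate number as a block. The 4 summed to 2176 CPM in replicate 3 and to 3552 and 3439 CPM in replicates 2 and 4, against 289 to 424 CPM in control. The 4 erythroid miRNAs summed to 22889 CPM in replicate 3, within the control range of 22279 to 31699 CPM, and 1 of them was called higher (miR-144) and 1 lower (miR-486-3p). Without replicate 3, 0 of these 4 were called higher and 1 lower. The erythroid sum joins opposite differences. In replicate 3, miR-451 (13174 CPM) and miR-144 (147 CPM) were above every control library. There miR-486 (9482 CPM) and miR-486-3p (86.7 CPM) were below every control library, as they were in all 6 HSA libraries. HSA replicate 5, with the most miR-215, had the lowest erythroid sum of all libraries, 6037 CPM.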

How the data were processed

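The members and all lists of miRNAs were chosen with earlier results of these data known. Reads had been trimmed by the authors (Cutadapt), placed on CanFam3.1 (Bowtie), annotated (miRBase) and counted (HTSeq). The deposited raw counts cover 517 entries, each a mature miRNA from 1 precursor. The deposited CPM are these counts over the library total, and a recomputation differed from them by at most 0.00499 CPM. The labels and the study's methods name different library kits for cardiac tissue. Entries with the same mature name and identical counts were merged, leaving 474, and the entry with the highest total stands for each mature miRNA.

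Raw counts were fitted in R 4.3.3 with edgeR 4.0.16 (quasi-likelihood test, TMM factors, default count filter, 244 entries for 225 mature miRNAs). Standard errors were derived from the F statistic and the fitted log2 difference. Log2 profiles used a pseudocount of 0.5 CPM. TMM factors were 0.769 to 0.889 in control and 0.948 to 1.96 in HSA. Alternatives were DESeq2 1.42.0, limma 3.58.1 on the deposited CPM plus 1, other scaling factors and filters, other merging, a replicate term, and each library left out. The scripts were tested on simulated data. Named miRNAs are the members, the lists, the 5 profiles nearest to miR-122 and to miR-192, and the 10 largest excesses in HSA replicate 3. Those named for HSA replicate 5 were chosen after their values were seen. Nothing in the labels says that libraries with the same number belong together. Each p behind a call tests the difference between the groups against the spread between dogs within a group.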

Additional observations from a re-analysis of the deposited data

Results flagged for a closer look

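Within each group of 6 libraries, the gap between the extreme library and its neighbor was divided by the range of the group and compared with Dixon's 95% critical value. Of the 13 groups of values examined, 6 held an outlying library, all among the HSA libraries. Chance gives about 1 in 20 in normally distributed values not chosen beforehand. The ratio was taken on unlogged CPM, which were skewed in HSA (for miR-192 a mean of 2020 against a median of 732). The rate of 1 in 20 therefore need not hold here. The 7 miRNAs were chosen with the levels in HSA replicate 3 known, so these flags describe the choice and are no independent sign that this library stands apart. HSA replicate 3 was outlying for miR-122 with 204213 CPM, for miR-192 with 8075 CPM, for miR-885 with 461 CPM, for miR-802 with 21.5 CPM and for miR-483 with 21.1 CPM. HSA replicate 5 was outlying for miR-215 with 343 CPM. MiR-194, which was highest in the same library as miR-192, did not pass the critical value in HSA, and no control library was outlying for any of the 7 miRNAs. These 6 flags come from 2 libraries and are not independent of each other.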

How the results depend on the processing

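Of the members, 4 were called higher in HSA and 0 lower. The count of 4 was also found with median-of-ratios or upper quartile factors, library size only, TMM without the members, both other filters and both other ways of merging. An adjusted p under 0.05 in the main fit, which could not give fewer, gave 4 as well. DESeq2 called 2, miR-192 and miR-194. It gave an unadjusted p for 3 of the 7 members, and no adjusted p for miR-122, miR-215 or miR-885. Limma on the deposited CPM called 1, miR-194. The fit with the replicate number as a block called 0 (4 at an unadjusted p under 0.05), but the libraries share only a number, since the correlation of their deviations ran from -0.29 to 0.06 and no library was nearest to its namesake. Leaving out 1 library gave 0 to 4, with 0 whichever control library was left out (4 or 5 at an unadjusted p under 0.05), 2 without HSA replicate 4 and 3 without HSA replicate 5. Calls over all miRNAs changed too. In the main fit 42 were called higher, against 52 in DESeq2, 53 in limma and 3 with the block. With 1 control library left out it was 19 to 30, and without HSA replicates 4 and 5 it was 24 and 41. Except that a left-out library means fewer samples, the cause of these changes was not tested. At an adjusted p under 0.05, added after seeing the data, each of the 12 fits with 1 library left out called 4 members. No setting called a member lower. The log2 fold change of miR-885 ran from -0.33 to 3.07 with 1 library left out, reversing to -0.33 without HSA replicate 3, and no other log2 fold change of a member changed sign. Their size did change. That of miR-122 was 10.58 in edgeR, 5.52 in limma and 4.23 with the block, that of miR-215 was 6.22, 3.22 and 4.07, and that of miR-885 was 2.83, 0.98 and 0.23, in the same order. For miR-192 it was 4.04, 3.16 and 2.45, and for miR-194 4.21, 3.40 and 2.76. Library size only moved the median log2 fold change of all miRNAs from 0.34 to 0.97. Counts of miR-802, miR-483 and, in control, miR-215 are too low to show moderate differences.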
